A study of Homo sapiens with 30 samples.

Results

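Results are given here for 45 human genes of the cell cycle and of DNA replication, measured by RNA sequencing in brain endothelial cells. The genes were taken by symbol from a table of raw read counts that holds 63138 genes, and each symbol was found on 1 line of it. They fall into 18 genes of S phase and DNA replication, 18 genes of G2 and mitosis (G2/M), and a class of 9 with 6 cyclins, the kinase CDK1 and the inhibitors CDKN1A and CDKN1B. The cells were hCMEC/D3, a human brain microvascular endothelial line immortalised with telomerase and the large T antigen of SV40. Large T binds the retinoblastoma protein, which limits the line as a model of normal cell-cycle control.

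The 30 libraries form 10 groups of 3. The Control group had serum-free medium alone. The other directly treated groups had, for 12 h, 25 ng/mL of tumour necrosis factor alpha (TNF), 10 ng/mL of interleukin 1 beta (IL1b), 50 ng/mL of the complement fragment C5a, or 200 nM epinephrine. In 5 further groups, again with 12 h in the labels, cells of this line were given vesicles enriched from the medium of cells that had had one of those treatments. Each is named after the cells the vesicles came from: EV-Control for unstimulated cells, and EV-TNF, EV-Epinephrine, EV-IL1b and EV-C5a for the stimulated ones. The amount of vesicles is not given in the sources used here. Nothing in the labels says that the 3 libraries of a group came from separate cultures, so p-values measure the spread between these libraries, which may be technical.

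A cell enters the cycle when D-type cyclins and their kinases phosphorylate the retinoblastoma protein, which frees E2F transcription factors to switch on the genes of DNA synthesis. Cyclins E and A with their kinases then drive S phase, and cyclin B with CDK1 drives mitosis, while p21 (CDKN1A) and p27 (CDKN1B) inhibit these kinases. Genes of G2 and mitosis are transcribed later by the MuvB complex with B-MYB (MYBL2) and FOXM1, through promoter elements called CHR and CCAAT. Endothelium of the adult brain is mostly quiescent, whereas a growing culture of this line holds cells in every phase. In bulk RNA, fewer cells in a phase and less RNA per cell cannot be told apart.

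The promoters are shown first because the classes differ in their letters. RefSeq promoters on GRCh38.p14, each 300 bases long with 250 before and 50 after the start, were found for 35 of the 45 genes. An E2F motif, taken as TTTCCCGC, TTTCGCGC, TTTGCCGC or TTTGGCGC on either strand, was present in 11 of 15 S-phase promoters (73.3%), 1 of 13 G2/M promoters (7.69%) and 1 of 7 promoters of the cyclin and inhibitor class, against 3.99% of all 27305 genes with a promoter. The CHR motif, TTTGAA on either strand, was present in 9 of 13 G2/M promoters (69.2%), 1 of 15 S-phase promoters (6.67%) and 18.2% of all genes. CCAAT on either strand was present in 11 of 13 G2/M promoters (84.6%), 10 of 15 S-phase promoters (66.7%) and 39.7% of all genes. CHR and CCAAT stood together in 8 of 13 G2/M promoters (61.5%) and in 8.37% of all genes. A match describes these letters and is not a shown site of binding.

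The stretches below are 140 bases each, read 5′ to 3′ on the gene's own strand, with motif matches on either strand in capitals. MKI67, KIF11, CDC20 and TOP2A stand for G2/M, and MCM6, E2F1 and E2F2 for S phase. On GRCh38.p14 they lie at chr10:128126424-128126563, minus strand (MKI67), chr10:92592990-92593129, plus strand (KIF11), chr1:43358815-43358954, plus strand (CDC20) and chr17:40417951-40418090, minus strand (TOP2A). The S-phase stretches lie at chr2:135876444-135876583, minus strand (MCM6), chr20:33686405-33686544, minus strand (E2F1) and chr1:23531234-23531373, minus strand (E2F2). All lie upstream of the annotated exons of their genes. In MKI67 the last CHR and CCAAT matches share a base, and in MCM6 the longest run of capitals joins overlapping E2F matches on opposite strands.
MKI67: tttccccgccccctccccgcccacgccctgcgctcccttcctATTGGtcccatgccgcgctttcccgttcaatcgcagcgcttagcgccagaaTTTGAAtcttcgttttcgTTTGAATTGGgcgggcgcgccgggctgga
KIF11: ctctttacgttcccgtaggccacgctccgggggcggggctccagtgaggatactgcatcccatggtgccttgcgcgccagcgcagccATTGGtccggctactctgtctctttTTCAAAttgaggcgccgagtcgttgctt
CDC20: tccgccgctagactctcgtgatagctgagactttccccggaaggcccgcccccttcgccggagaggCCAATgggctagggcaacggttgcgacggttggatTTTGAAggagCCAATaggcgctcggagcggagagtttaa
TOP2A: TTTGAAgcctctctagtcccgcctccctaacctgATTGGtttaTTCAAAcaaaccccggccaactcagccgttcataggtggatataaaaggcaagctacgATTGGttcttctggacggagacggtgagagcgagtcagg
MCM6: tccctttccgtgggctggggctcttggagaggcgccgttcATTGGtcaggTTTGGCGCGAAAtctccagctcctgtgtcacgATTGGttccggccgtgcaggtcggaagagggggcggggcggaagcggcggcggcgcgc
E2F1: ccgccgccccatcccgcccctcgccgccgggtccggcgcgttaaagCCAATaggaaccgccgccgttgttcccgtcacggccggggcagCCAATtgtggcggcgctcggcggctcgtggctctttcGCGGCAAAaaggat
E2F2: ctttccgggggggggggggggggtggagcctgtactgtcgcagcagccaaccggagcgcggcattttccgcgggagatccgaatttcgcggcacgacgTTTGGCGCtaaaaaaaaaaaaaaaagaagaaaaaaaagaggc

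**Figure D1:**
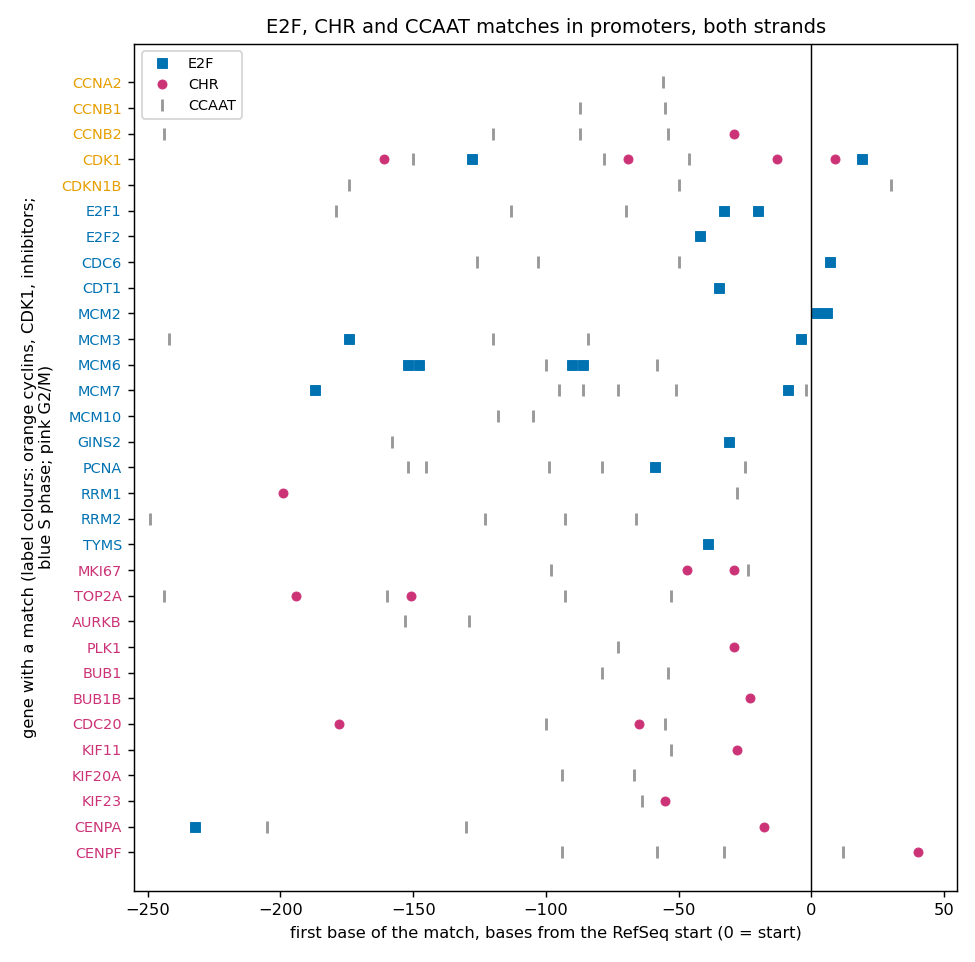
Positions of E2F, CHR and CCAAT matches on either strand in the RefSeq promoters of the 31 genes with a match, out of 35 with a promoter; the horizontal axis gives bases from the start and each row is a gene. E2F matches gather in the S-phase rows (11 of 15 promoters) and CHR matches in the G2/M rows (9 of 13).

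Library totals ran from 16643961 to 22112326 counts. All 45 genes passed the filter on low counts in every fit, and the lowest count of any of them in any library was 88, for E2F8. Levels are counts scaled to a common library size of 1e6 (CPM) after TMM scaling. Of 14 endothelial markers 13 were at 1 CPM or more in every group, with a summed level of 958 to 1510 CPM over the libraries, and EMCN was below 1 CPM. Leukocyte and microglia markers summed to at most 2.83 CPM and epithelial markers to at most 2.86 CPM. TNF libraries had scaling factors of 0.842 to 0.861, against 0.974 to 1.05 for the others. Scaling by library totals alone moved the median of all genes in TNF against Control to −0.29 on the log2 scale, from −0.01.

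In unstimulated cells the 45 genes spanned a wide range of levels per kilobase of exon. PCNA, the sliding clamp of DNA polymerases, stood highest at 227 ± 6.32 CPM per kilobase (SD, n = 3), followed by CDKN1A at 149 ± 1.93 and TOP2A, the topoisomerase that untangles chromosomes, at 141 ± 2.98. CDC20 and TPX2, at 113 ± 1.1 and 113 ± 1.22, did not differ beyond their spread. The scarcest were cyclin E2 (CCNE2) at 6.98 ± 0.652, E2F2 at 5.8 ± 0.188, cyclin E1 (CCNE1) at 4.93 ± 0.214 and E2F8 at 2.47 ± 0.248 CPM per kilobase. The median coefficient of variation within groups ran from 1.33% for MCM4 to 9.76% for E2F8. MKI67 in Epinephrine was wider, at 20.4%.

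TNF lowered most cell-cycle genes of all 3 classes, while cyclin D1 rose. Of the 45 genes 41 fell and 2 rose, with a median log2 change of −0.46 (52.7% of all genes tested called, 27.5% higher and 25.3% lower, median −0.01). A gene is called here where the adjusted p of edgeR's quasi-likelihood test, by Benjamini and Hochberg's method over all genes tested, was under 0.05. By class, 16 of 18 S-phase genes, 17 of 18 G2/M genes and 8 of the 9 cyclins, CDK1 and inhibitors fell. Among the 10 groups, TNF held the lowest group mean of 37 of the 45 genes.

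CCND1, which encodes cyclin D1 (chromosome 11, 69641087 to 69654474, plus strand, GRCh38), had 87.2, 82.1 and 74.3 CPM in the Control libraries and 166, 179 and 174 CPM in the TNF libraries. All TNF libraries lay above all libraries of the other groups. CCND1 rose 2.13-fold (log2 1.09, SE 0.059, adjusted p = 6.27e-18). Cyclin A2 (CCNA2; chromosome 4, 121816444 to 121823933, minus strand), the cyclin of S phase and G2, went the other way, from 186, 182 and 201 CPM to 104, 111 and 99.7 CPM. Its groups did not overlap (log2 −0.86, SE 0.05, adjusted p = 5.75e-17). CCNB2 (cyclin B2) fell by 0.71 on the log2 scale, from 125, 126 and 131 CPM to 82.5, 77.3 and 74.6 CPM. CDK1 fell by 0.70, CCNE2 by 0.66, CCNE1 by 0.40 and CCNB1 (cyclin B1) by 0.31. CCNE2 had 33.8, 30.2 and 28.1 CPM in Control and 18.02, 20.8 and 19.3 CPM in TNF, without overlap.

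Both kinase inhibitors also fell with TNF. CDKN1B (chromosome 12, 12715058 to 12722371, plus strand) had 106, 109 and 113 CPM in Control and 72.6, 76.8 and 75.3 CPM in TNF (log2 −0.55, SE 0.053, adjusted p = 4.06e-11). CDKN1A (chromosome 6, 36676460 to 36687339, plus strand) had 457, 459.6 and 448 CPM in Control and 364, 378 and 356 CPM in TNF (log2 −0.31, SE 0.045, adjusted p = 2.38e-07). Neither gene's groups overlapped.

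Among the S-phase genes E2F2, an activating E2F factor (chromosome 1, 23506430 to 23531220, minus strand), fell furthest. Its Control libraries held 31.98, 30.5 and 32.5 CPM and its TNF libraries 13.9, 15.03 and 16.2 CPM (log2 −1.07, SE 0.079, adjusted p = 4.61e-14). E2F8, a repressing E2F factor, fell by 0.75 on the log2 scale, from 10.5, 11.1 and 9.1 CPM to 5.87, 5.96 and 6.46 CPM. E2F1 fell by 0.66, from 102, 108 and 106 CPM to 67.6, 68.8 and 64.5 CPM. The groups were apart for all 3 of these factors. TYMS (thymidylate synthase) fell by 0.61, the licensing factor CDT1 by 0.60, and RRM2, the regulated subunit of ribonucleotide reductase, by 0.57. PCNA changed less, from 329, 327 and 344 CPM to 298, 299.8 and 315 CPM, again without overlap (log2 −0.13, SE 0.047, adjusted p = 0.0173). CDC6, which loads the replicative helicase, was not called at −0.10 (adjusted p = 0.0767). The call of PCNA was lost in fits without Control replicate 3 or without TNF replicate 1 or 2 (adjusted p up to 0.0813).

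The 6 subunits of the replicative helicase, MCM2 to MCM7, did not share a size of change in TNF. MCM6 (chromosome 2, 135839626 to 135876426, minus strand) had 147, 148 and 152 CPM in Control and 95.96, 91.5 and 94.1 CPM in TNF (log2 −0.67, SE 0.047, adjusted p = 1.15e-14). MCM2 had 244, 239.8 and 235 CPM against 186, 185 and 197 CPM (log2 −0.34, SE 0.044, adjusted p = 3.27e-08). Both were below Control in every TNF library. MCM3, MCM4 and MCM5 fell by 0.24, 0.23 and 0.11, and the call of MCM5 was lost without Control replicate 1 or 3 or without TNF replicate 2 (adjusted p up to 0.155). MCM7 (chromosome 7, 100092728 to 100101940, minus strand) instead went from 420.2, 419 and 426 CPM to 456, 459 and 463 CPM, a log2 change of 0.12 (adjusted p = 0.00969) that turned to −0.15 when libraries were scaled by their totals. Exons of 14 of the 45 genes, among them CCND1, CCNA2, CDKN1A and MCM7, overlap an exon of another gene on the opposite strand, and whether counting used the strand is not given in the sources used here.

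Of the G2/M genes, CENPA, the histone of the centromere (chromosome 2, 26764289 to 26801067, plus strand), had 44.6, 45.6 and 38.5 CPM in Control and 23.96, 23.7 and 26.6 CPM in TNF (log2 −0.80, SE 0.078, adjusted p = 5.89e-11). Its exons overlap those of SLC35F6 on the same strand, so the split of reads between these genes is uncertain. TOP2A (chromosome 17, 40388516 to 40417950, minus strand) had 893, 930.5 and 907 CPM against 526, 581 and 519.5 CPM (log2 −0.75, SE 0.044, adjusted p = 6.81e-17). The mitotic kinesin KIF20A had 235, 241 and 245 CPM against 142, 155 and 140.1 CPM, a fall of 0.72 on the log2 scale. MKI67, which encodes the Ki-67 proliferation marker, had 758, 798 and 738 CPM against 535, 504 and 555 CPM (log2 −0.53, SE 0.12, adjusted p = 0.0027). The groups of these 4 genes did not overlap. BUB1, a kinase of the spindle checkpoint, was the G2/M gene not called, with 153, 154 and 157 CPM in Control, 157, 158 and 146 CPM in TNF and a log2 change of −0.01 (adjusted p = 0.84). BUB1B, which acts in the same checkpoint, fell by 0.36.

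**Figure D2:**
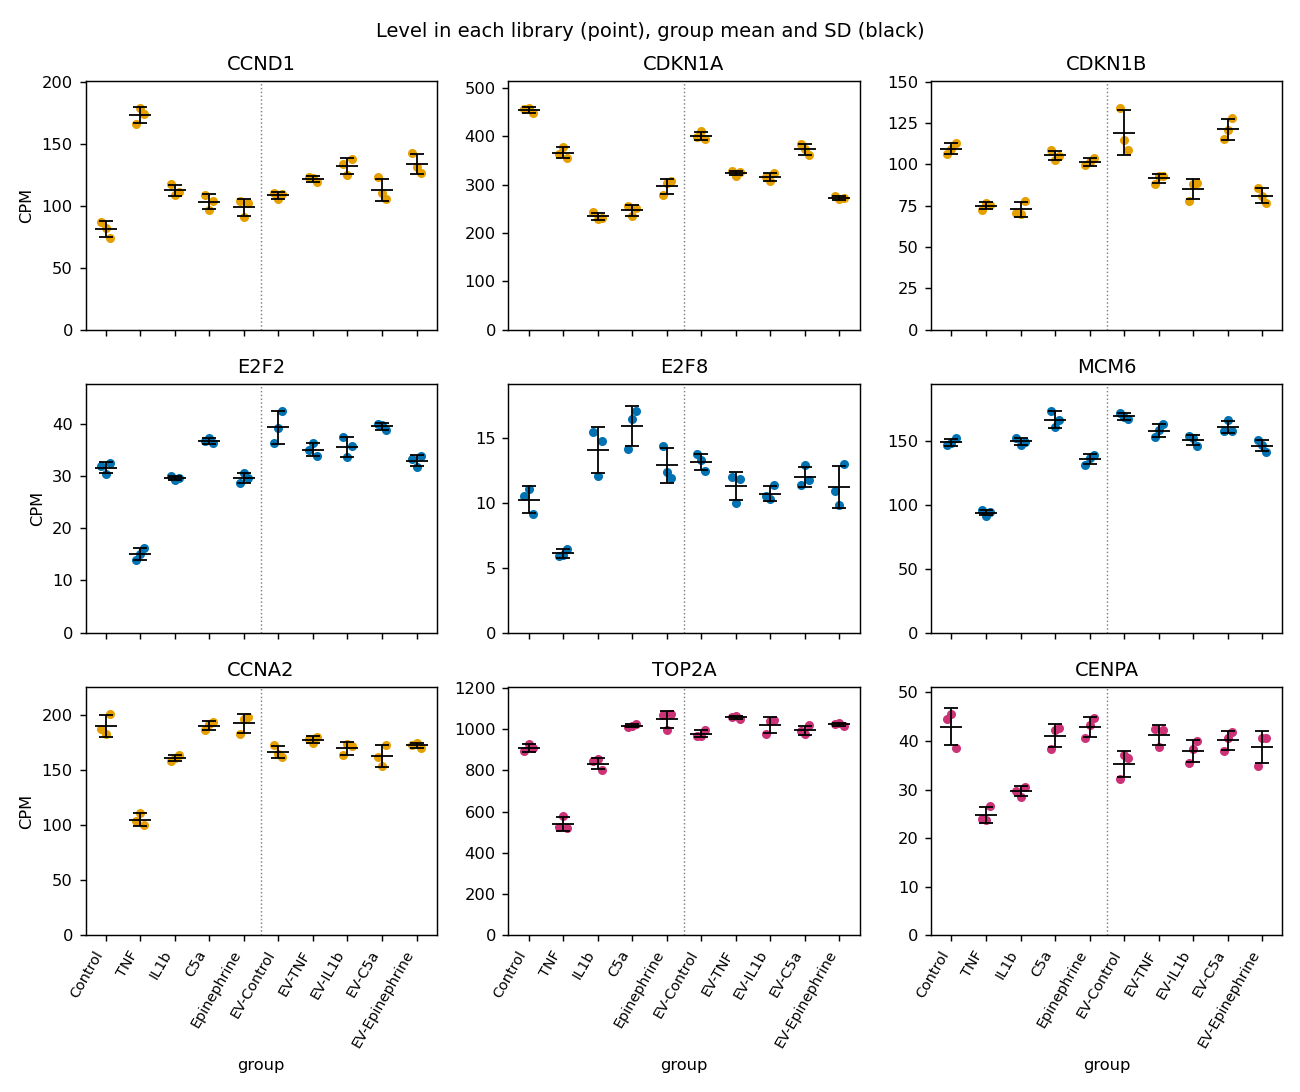
Level in CPM (vertical axes, from 0) of 9 genes in each library (points), with the group mean and SD in black, for the 10 groups. The TNF points of CCND1 lie above those of every other group, and the TNF points of E2F2, MCM6, CCNA2, TOP2A and CENPA lie below the points of every other group.

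Genes of the same processes outside the 45 were read from lists chosen with earlier results of these data known. Of 50 other G2/M genes 40 fell and 2 rose with TNF (median −0.45), with the kinetochore gene SPC24 at −1.19 and the kinesin KIF14 at −0.83. Of 44 other S-phase genes 19 fell and 4 rose (median −0.14), with the primase subunit PRIM1 at −0.81. That list had 52.3% called, near the 52.7% of all genes tested, of which 25.3% were lower. Of 33 other cyclins, kinases, inhibitors and pocket proteins 10 rose and 15 fell. The inhibitor CDKN2C fell by 1.56 and CDKN2B rose by 1.42, and CDK6, a partner of cyclin D, rose by 0.97. Among markers of other cells, MAP2 rose by 1.48 and the neuronal list summed to 125 to 137 CPM in TNF against 43.4 to 53.7 CPM in Control, with RBFOX3 and SNAP25 below 1 CPM. Of the astrocyte markers 5 of 7 were below 1 CPM, and the others went in opposite directions: GJA1 rose by 1.07 and GFAP fell by 1.1. Their sum, mostly GJA1, was 264 to 281 CPM against 126 to 143 CPM. The pericyte and smooth muscle list summed to 46.4 to 47.7 CPM against 84.2 to 94.6 CPM. The part of these shifts in the results was not tested.

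IL1b lowered G2/M genes, while calls in the S-phase class were fewer and went both ways. Of the 45 genes 26 fell and 5 rose, with a median log2 change of −0.18 (46.6% of all genes tested called, 24% higher and 22.6% lower). Of the G2/M genes 16 of 18 fell (median −0.29), while 4 S-phase genes fell and 3 rose of 18 (median −0.03). The share of S-phase genes called, 38.9%, was below that of all genes. Of the cyclins, CDK1 and inhibitors, 6 fell and 2 rose of 9.

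CDKN1A changed most with IL1b, from 457, 459.6 and 448 CPM to 243, 229 and 231 CPM (log2 −0.95, SE 0.045, adjusted p = 8.5e-19). CDKN1B went from 106, 109 and 113 CPM to 70.3, 69.96 and 77.8 CPM (log2 −0.58, SE 0.052, adjusted p = 1.67e-11). CCND1 rose from 87.2, 82.1 and 74.3 CPM to 117, 109 and 111 CPM (log2 0.48, SE 0.059, adjusted p = 2.6e-08). None of these groups overlapped. CCNE1 rose by 0.33 on the log2 scale, a call lost without IL1b replicate 1 (adjusted p = 0.0698), and CCNE2, at 30.8, 31.3 and 27.3 CPM, overlapped Control and was not called at −0.04 (adjusted p = 0.746).

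In the S-phase class the replication initiation factor MCM10 rose with IL1b, from 55.8, 54.5 and 54.5 CPM to 72.2, 74.7 and 69.8 CPM (log2 0.40, SE 0.057, adjusted p = 2.99e-07). E2F8 rose from 10.5, 11.1 and 9.1 CPM to 15.5, 12.1 and 14.7 CPM (log2 0.47, SE 0.12, adjusted p = 0.00151). E2F1 fell from 102, 108 and 106 CPM to 79.9, 74.3 and 78.4 CPM (log2 −0.43, SE 0.057, adjusted p = 8.2e-08). Groups did not overlap for any of the 3. CDC6 rose by 0.31 and CDT1 fell by 0.30, and MCM2, with 221, 217 and 229 CPM, was not called at −0.10 (adjusted p = 0.0642). PCNA, with 318, 314 and 317 CPM, was not called at −0.07 (adjusted p = 0.249).

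Among G2/M genes with IL1b, CENPA fell from 44.6, 45.6 and 38.5 CPM to 29.8, 28.6 and 30.6 CPM (log2 −0.53, SE 0.075, adjusted p = 3.95e-07). KIF20A fell from 235, 241 and 245 CPM to 169, 162 and 173 CPM (log2 −0.51, SE 0.045, adjusted p = 1.4e-11), and BIRC5 (survivin), a subunit of the chromosomal passenger complex, from 225, 231 and 218 CPM to 171, 172 and 165 CPM, by 0.40. The 3 genes were below Control in every IL1b library. TOP2A fell less, by 0.12, to 844, 855 and 802 CPM, and its call was lost without Control replicate 1 or 2 or without IL1b replicate 3 (adjusted p up to 0.195). MKI67 was lower in each IL1b library, at 647, 702 and 680.2 CPM, than in any Control library, and was not called at −0.17 (adjusted p = 0.265). That fit shares its spread with the Epinephrine libraries, where MKI67 scattered, and with the 6 libraries of these groups alone the adjusted p was 1.54e-05.

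Of the other G2/M genes 29 of 50 fell and 1 rose with IL1b, with the kinetochore gene NDC80 at −0.50. Of the other S-phase genes 14 of 44 rose and 6 fell, with UHRF1, which couples DNA methylation to replication, at 0.47. That list had 45.5% called, near the 46.6% of all genes tested. The inhibitors CDKN2D and CDKN2C fell by 1.07 and 0.91, and the activator E2F3 rose by 0.59. Of 13 endothelial markers tested, 11 fell and 0 rose. Astrocyte markers, mostly GJA1 (up by 0.84), summed to 235 to 240 CPM with IL1b against 126 to 143 CPM in Control, and neuronal markers to 59.5 to 67.7 CPM against 43.4 to 53.7 CPM. Of the 3 neuronal markers tested 1 was called higher and 1 lower, with 1 log2 change above 0 and 2 below, so the list did not rise as a whole. Pericyte and smooth muscle markers summed to 60.4 to 62.4 CPM against 84.2 to 94.6 CPM. The part of these marker shifts in the results was not tested.

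Set directly against TNF, IL1b libraries held more RNA of most of these genes. Of the 45, 35 were higher and 3 lower in IL1b, with a median log2 difference of 0.28 (41.4% of all genes tested called, 19.9% higher and 21.4% lower). All 15 called S-phase genes were higher, with E2F8 at 1.22 and E2F2 at 0.99. The 3 that were lower were CCND1 (−0.62), CDKN1A (−0.64) and BUB1 (−0.17). With libraries scaled by their totals BUB1 turned to 0.03, and the median of all genes lay at 0.21.

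With C5a the called S-phase genes mostly rose, and CDKN1A fell. Of the 45 genes 10 rose and 3 fell, a share of 28.9% that is near the share of all genes (22.6% of all genes tested called, 11.8% higher and 10.8% lower). When the 6 libraries of these groups were fitted alone 14 rose and 7 fell, and that fit called 4595 of all 14883 genes tested. The 3 falls became 1, that of CDKN1A, without Control replicate 3, C5a replicate 1 or C5a replicate 3. CDKN1A fell from 457, 459.6 and 448 CPM to 257, 235 and 251 CPM (log2 −0.87, SE 0.045, adjusted p = 5.59e-17). CCND1 rose from 87.2, 82.1 and 74.3 CPM to 109, 96.9 and 104 CPM (log2 0.35, SE 0.059, adjusted p = 2.48e-05). Both genes' groups lay apart. CDKN1B, at 108, 102 and 105 CPM, was not called at −0.05 (adjusted p = 0.581), nor was CCNE2, at 31.5, 33.1 and 34.2 CPM and 0.11 (adjusted p = 0.368).

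S-phase genes made up 7 of the 10 rises with C5a, and E2F1, at 96.03, 96.7 and 88.8 CPM, was the S-phase gene that fell (log2 −0.16, SE 0.057, adjusted p = 0.0408). The call of E2F1 was lost without any 1 of the 6 libraries (adjusted p up to 0.216). E2F8 went from 10.5, 11.1 and 9.1 CPM to 14.2, 16.5 and 17.1 CPM (log2 0.64, SE 0.12, adjusted p = 9.07e-05). MCM10 went from 55.8, 54.5 and 54.5 CPM to 66.2, 64.8 and 70.7 CPM, a rise of 0.30 on the log2 scale. E2F2 went from 31.98, 30.5 and 32.5 CPM to 36.8, 37.4 and 36.3 CPM, a rise of 0.23 whose call was lost without Control replicate 2 or without C5a replicate 2 (adjusted p up to 0.0858). None of the 3 overlapped Control. Of the G2/M genes TOP2A rose to 1013, 1018 and 1023 CPM (log2 0.17, SE 0.043, adjusted p = 0.00336), and AURKB, the kinase of the passenger complex, rose by 0.17 from 85.8, 86.3 and 80.5 CPM to 98.7, 99.5 and 84.9 CPM, with overlap. That call was lost without Control replicate 3 or without C5a replicate 1 or 2 (adjusted p up to 0.171). KIF20A fell by 0.15, from 235, 241 and 245 CPM to 215, 218 and 212 CPM, and the call was lost without Control replicate 3 or without C5a replicate 1 or 3 (adjusted p up to 0.0638). Among the genes not called with C5a, MKI67 had 764, 813 and 816 CPM, MCM2 241, 232 and 248 CPM and PCNA 329.6, 314 and 321 CPM, with log2 changes of 0.07 (adjusted p = 0.73), 0.01 (adjusted p = 0.855) and −0.04 (adjusted p = 0.582). In the lists outside the 45, 11 of 44 other S-phase genes rose and 1 fell, with UHRF1 at 0.50, and 10 of 50 other G2/M genes rose and 2 fell, with the kinesin KIF18B at 0.62. These lists had 27.3% and 24% called, near the 22.6% of all genes tested. Of 13 endothelial markers 10 fell, astrocyte markers summed to 149 to 165 CPM against 126 to 143 CPM in Control and neuronal markers to 37.3 to 42.3 CPM against 43.4 to 53.7 CPM, and the part of these shifts in the results was not tested.

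With epinephrine called S-phase genes mostly fell, and the few called G2/M genes rose. Of the 45 genes 9 rose and 9 fell (25.2% of all genes tested called, 13.5% higher and 11.8% lower). Of the S-phase genes 8 of 18 fell and 3 rose, while the 4 called G2/M genes all rose. The shares called were 61.1% of S-phase genes and 22.2% of G2/M genes, the last near that of all genes. In all, 9 genes were called when the 6 libraries of these groups were fitted alone, and 11 without Control replicate 1. The fit of 6 libraries called 2878 of all 14883 genes tested, a share like that of the 45. The falls numbered 5 without Control replicate 1 or 3 or without Epinephrine replicate 1 or 3. CDKN1A fell from 457, 459.6 and 448 CPM to 279, 304 and 307 CPM (log2 −0.61, SE 0.045, adjusted p = 8.55e-13). CCND1 rose from 87.2, 82.1 and 74.3 CPM to 103, 90.6 and 102 CPM (log2 0.29, SE 0.06, adjusted p = 0.000306). Both genes' groups lay apart. CDKN1B, at 99.4, 101 and 104 CPM, was not called at −0.10 (adjusted p = 0.166), nor was CCNE2, at 28.3, 28.99 and 31.3 CPM and −0.05 (adjusted p = 0.736).

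CCNB1 (cyclin B1) rose with epinephrine from 262, 259.6 and 272 CPM to 284, 331 and 306 CPM (log2 0.22, SE 0.047, adjusted p = 0.000396). TOP2A rose from 893, 930.5 and 907 CPM to 1069, 999 and 1076 CPM, by 0.21, and the kinetochore motor CENPE from 144, 152 and 143 CPM to 174, 157 and 173 CPM, by 0.21. In each of these genes all Epinephrine libraries exceeded all Control libraries. AURKA, the kinase of the spindle poles, rose by 0.16, from 140.1, 140.3 and 144 CPM to 151, 163 and 158 CPM. MKI67 had 864, 572 and 707 CPM in Epinephrine, on both sides of the Control libraries, and was not called at −0.09 (adjusted p = 0.65).

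The S-phase genes that fell with epinephrine did so by little. Relative to the Control mean, the class had mean log2 levels of −0.09, 0 and −0.07 in the 3 Epinephrine libraries. MCM2 went from 244, 239.8 and 235 CPM to 209, 214 and 207 CPM (log2 −0.18, SE 0.044, adjusted p = 0.00191). E2F1 went from 102, 108 and 106 CPM to 82.6, 97.8 and 85.2 CPM (log2 −0.24, SE 0.057, adjusted p = 0.00139), and PCNA from 329, 327 and 344 CPM to 277, 325 and 296 CPM (log2 −0.15, SE 0.047, adjusted p = 0.0186). For each of the 3 all Epinephrine libraries lay below all Control libraries. MCM5 fell by 0.21 and TYMS by 0.22, the last from 69.6, 68.4 and 65.02 CPM to 50.4, 60.4 and 61.8 CPM. E2F8 instead rose by 0.34, from 10.5, 11.1 and 9.1 CPM to 14.4, 12.4 and 11.9 CPM, and CDC6 and RRM2 rose by 0.16 and 0.13. Calls were lost for PCNA without Control replicate 3 or without Epinephrine replicate 1 or 3 (adjusted p up to 0.153) and for TYMS without Control replicate 1 or 2 or without Epinephrine replicate 1 (adjusted p up to 0.193). CDT1, MCM4 and MCM6, which also fell, lost their calls in 4, 5 and 5 of the 6 fits with 1 library left out (adjusted p up to 0.195 in edgeR's test). Among the rises, calls were lost for E2F8 without Control replicate 1 or 3 or without Epinephrine replicate 1 (adjusted p up to 0.181), for CDC6 without Control replicate 2 (adjusted p = 0.108) and for RRM2 without Control replicate 1 or 2 or without Epinephrine replicate 3 (adjusted p up to 0.0953). Outside the 45, 15 of 50 other G2/M genes rose and 0 fell (30% called, against 25.2% of all genes tested). WEE1, the kinase that restrains CDK1, rose by 0.76. Of 13 endothelial markers 10 fell, astrocyte markers summed to 196 to 202 CPM against 126 to 143 CPM in Control, and the part of these shifts in the results was not tested.

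**Figure D3:**
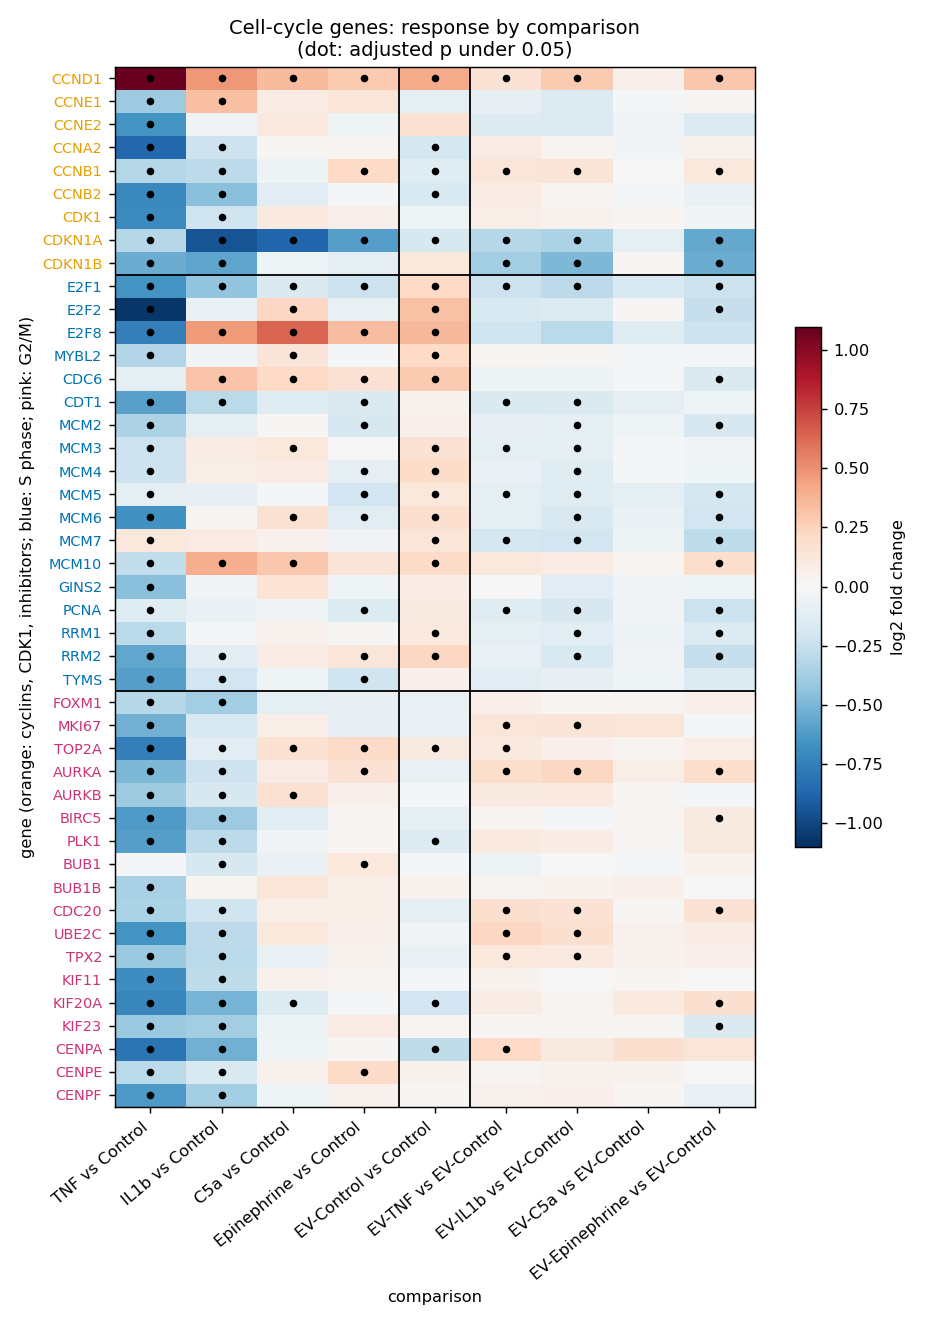
Log2 fold change (colour) of the 45 genes (rows, by class) in 9 comparisons (columns), with a dot where the adjusted p was under 0.05. With TNF 41 genes are lower and CCND1 and MCM7 higher (MCM7 turns lower with total-count scaling), with IL1b 16 of 18 G2/M rows are lower, and no dot falls in the EV-C5a column.

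Between the groups given no stimulus, vesicles went with more S-phase RNA. Of the 45 genes 15 were higher in EV-Control than in Control and 7 lower (21.9% of all genes tested called, 12.1% higher and 9.8% lower). The 13 called S-phase genes were all higher, with a class median of 0.17. With libraries scaled by their totals the split of the 45 was 12 higher and 11 lower. CDC6 had 119.7, 115 and 128 CPM in Control and 147, 151 and 146 CPM in EV-Control (log2 0.29, SE 0.043, adjusted p = 2.92e-07). E2F2 had 31.98, 30.5 and 32.5 CPM against 36.3, 39.2 and 42.6 CPM (log2 0.32, SE 0.068, adjusted p = 0.000294). CCND1 had 87.2, 82.1 and 74.3 CPM against 110, 105 and 109.8 CPM (log2 0.41, SE 0.058, adjusted p = 1.42e-07). No EV-Control library overlapped Control for these 3 genes. E2F8, at 13.7, 13.3 and 12.5 CPM, was 0.36 higher on the log2 scale, a call lost without Control replicate 3 or without EV-Control replicate 1 (adjusted p up to 0.121), and E2F1 was 0.22 higher. Among genes not called, MCM2 had 251, 254 and 243 CPM (0.06, adjusted p = 0.328) and CCNE2 35.97, 33.2 and 34.2 CPM (0.16, adjusted p = 0.129), both overlapping Control.

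A few mitotic genes and cyclins were lower in EV-Control than in Control, 7 genes in all and 4 without EV-Control replicate 1, the library of that group with the lowest mean of G2/M genes (−0.11 on the log2 scale relative to Control, against −0.05 and −0.01). Of the 18 G2/M genes 3 were called lower and 1 higher. That share of 22.2% is near the 21.9% of all genes tested, so it does not set the class apart. CENPA had 32.2, 37.1 and 36.4 CPM against 44.6, 45.6 and 38.5 CPM (log2 −0.28, SE 0.073, adjusted p = 0.00268), and KIF20A 199.8, 206 and 218 CPM against 235, 241 and 245 CPM (log2 −0.21, SE 0.042, adjusted p = 9.1e-05). The libraries of both genes were apart. PLK1, the Polo kinase of mitotic entry, was lower at −0.14 on the log2 scale, from 237, 234 and 230 CPM to 195, 217 and 223 CPM. The call of CENPA was lost without EV-Control replicate 1 (adjusted p = 0.054), and that of PLK1 without Control replicate 1 or 2 or without EV-Control replicate 1 (adjusted p up to 0.306). CCNA2 was lower at −0.19, with 172, 164 and 162 CPM, and CDKN1A at −0.18. TOP2A was higher, at 966, 969 and 997 CPM (log2 0.10, SE 0.036, adjusted p = 0.0312), a call lost without Control replicate 1 or 3 or without EV-Control replicate 3 (adjusted p up to 0.113), and MKI67, at 671, 728 and 769 CPM, was not called at −0.08 (adjusted p = 0.583). Of 14 endothelial markers 13 were lower in EV-Control, with a summed level of 962 to 1010 CPM against 1450 to 1510 CPM. Pericyte and smooth muscle markers summed to 107 to 111 CPM against 84.2 to 94.6 CPM, and the part of these shifts in the results was not tested.

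Vesicles from stimulated cells gave small changes from EV-Control, with called S-phase genes mostly lower and called G2/M genes mostly higher. Against EV-Control, EV-TNF had 9 of the 45 genes higher and 8 lower (13.3% of all genes tested called, 5.9% higher and 7.42% lower). EV-IL1b had 7 higher and 13 lower (14.6% of all genes tested called, 6.49% higher and 8.14% lower), and 13 were called without EV-Control replicate 1. The genes higher became 5 in EV-TNF without EV-Control replicate 1 or 2, and 3 in EV-IL1b without EV-Control replicate 1. EV-Epinephrine had 7 higher and 13 lower (19.7% of all genes tested called, 9.12% higher and 10.5% lower). Called S-phase genes were lower in 6 of 6 cases in EV-TNF, 11 of 11 in EV-IL1b and 10 of 11 in EV-Epinephrine. Called G2/M genes were higher in 7 of 7, 5 of 5 and 4 of 5 cases. Without EV-Control replicate 1, the library of its group lowest in G2/M genes, these were 4 of 4, 2 of 2 and 3 of 4. In the main fits the shares called were 33.3%, 61.1% and 61.1% of S-phase genes and 38.9%, 27.8% and 27.8% of the 18 G2/M genes. Without EV-Control replicate 1 the fit called 1698 of all 16367 genes tested for EV-IL1b, a share like that of the G2/M genes there. These comparisons share the EV-Control libraries. Relative to the Control mean, the S-phase class had mean log2 levels of 0.14 to 0.19 in EV-Control. It lay at 0.06 to 0.09 in EV-TNF, 0.02 to 0.05 in EV-IL1b and 0.01 to 0.05 in EV-Epinephrine. The S-phase falls thus left the mean of that class no lower than the Control mean, but single genes lay lower. MCM7 lay below every Control library in EV-TNF, EV-IL1b and EV-Epinephrine. PCNA did so in EV-IL1b and EV-Epinephrine, and MCM2 in EV-Epinephrine. The G2/M class lay at −0.11 to −0.01 in EV-Control, 0.04 in EV-TNF, 0 to 0.04 in EV-IL1b and −0.01 to 0 in EV-Epinephrine.

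The inhibitors gave the largest changes with these vesicles. CDKN1A had 399, 411 and 395 CPM in EV-Control and 328, 319 and 327 CPM in EV-TNF (log2 −0.31, SE 0.032, adjusted p = 6.63e-11). It had 315, 308 and 324 CPM in EV-IL1b (log2 −0.35, SE 0.033, adjusted p = 1.85e-12) and 277, 269.9 and 272 CPM in EV-Epinephrine (log2 −0.56, SE 0.033, adjusted p = 4.85e-20). All 9 libraries lay below EV-Control. CDKN1B had 134, 115 and 109 CPM in EV-Control, 88.3, 93.2 and 92.8 CPM in EV-TNF, 77.8, 88.3 and 88.9 CPM in EV-IL1b and 85.7, 80.7 and 76.7 CPM in EV-Epinephrine. The groups were again apart, with falls of 0.38, 0.49 and 0.55 on the log2 scale. CCND1 rose by 0.16, 0.29 and 0.30 in the same order, from 110, 105 and 109.8 CPM to 123, 122 and 119 CPM, 134, 125 and 138 CPM and 143, 132 and 126 CPM. The call of CCND1 with EV-TNF was lost without EV-Control replicate 2 or without EV-TNF replicate 1 or 2 (adjusted p up to 0.0865). CCNE2 was not called with any of them, at 35.97, 33.2 and 34.2 CPM in EV-Control, 29.7, 34.6 and 29.7 CPM in EV-TNF, 32.1, 32.4 and 28.7 CPM in EV-IL1b and 31.96, 28.7 and 32.7 CPM in EV-Epinephrine.

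Of the S-phase genes E2F1, MCM5, MCM7 and PCNA fell with all 3 of these vesicle kinds. MCM7 had 475, 471 and 442 CPM in EV-Control, 407, 400.4 and 411 CPM in EV-TNF, 402, 402 and 398 CPM in EV-IL1b and 382, 379 and 382 CPM in EV-Epinephrine. E2F1 had 121, 129 and 119 CPM in EV-Control, 103, 99.4 and 109.9 CPM in EV-TNF, 99.4, 101 and 102 CPM in EV-IL1b and 104, 108 and 101 CPM in EV-Epinephrine. For both genes these groups lay below EV-Control without overlap, by 0.19, 0.21 and 0.28 for MCM7 and by 0.24, 0.29 and 0.24 for E2F1. MCM5 fell by 0.10, 0.13 and 0.19, and its call with EV-TNF was lost without EV-Control replicate 1 or 2 or without EV-TNF replicate 2 or 3 (adjusted p up to 0.223). PCNA fell by 0.13, 0.18 and 0.24, with 368, 361 and 342 CPM in EV-Control, 326, 325 and 327 CPM in EV-TNF, 312, 317 and 314 CPM in EV-IL1b and 294, 306 and 306 CPM in EV-Epinephrine. MCM2 had 251, 254 and 243 CPM in EV-Control and fell to 236, 231 and 232 CPM in EV-IL1b and 217, 218 and 225 CPM in EV-Epinephrine, by 0.10 and 0.18. The call of MCM2 with EV-IL1b was lost without EV-Control replicate 1 or 2 or without EV-IL1b replicate 1, 2 or 3 (adjusted p up to 0.151). In EV-TNF, at 238, 235 and 230.3 CPM, it lay below EV-Control and was not called at −0.09 (adjusted p = 0.0672). CDT1 fell by 0.16 with EV-TNF, from 116, 118 and 111 CPM to 108, 100 and 102 CPM, and E2F2 by 0.25 with EV-Epinephrine, from 36.3, 39.2 and 42.6 CPM to 33.4, 31.8 and 33.9 CPM. These calls were lost without EV-Control replicate 2 or without EV-TNF replicate 2 (adjusted p up to 0.0833) for CDT1 and without EV-Control replicate 3 (adjusted p = 0.0618) for E2F2. RRM2 fell by 0.25 with EV-Epinephrine, from 639, 602 and 612 CPM to 524, 517 and 518 CPM.

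Of the G2/M genes AURKA and CDC20, the activator of the anaphase-promoting complex, rose with all 3. AURKA had 126, 139 and 138 CPM in EV-Control, 155, 153 and 152 CPM in EV-TNF, 152, 161 and 160.5 CPM in EV-IL1b and 155, 149.7 and 156 CPM in EV-Epinephrine. CDC20 had 204, 216 and 221 CPM in EV-Control, 240.1, 242 and 243 CPM in EV-TNF, 249, 226 and 241 CPM in EV-IL1b and 244, 237 and 235 CPM in EV-Epinephrine. All of these libraries exceeded EV-Control in both genes, by 0.19, 0.23 and 0.19 for AURKA and by 0.18, 0.16 and 0.16 for CDC20 on the log2 scale. UBE2C, which carries ubiquitin for that complex, had 88.6, 95.3 and 106 CPM in EV-Control, rose by 0.23 with EV-TNF to 121, 108 and 112 CPM and by 0.18 with EV-IL1b to 113, 106 and 109 CPM, and was not called with EV-Epinephrine at 0.08 (adjusted p = 0.308). CCNB1 rose by 0.13, 0.14 and 0.12, and KIF20A rose by 0.18 with EV-Epinephrine, from 199.8, 206 and 218 CPM to 229.8, 235 and 242 CPM. TOP2A had 966, 969 and 997 CPM in EV-Control, 1059, 1064 and 1050 CPM in EV-TNF, 976, 1038 and 1047 CPM in EV-IL1b and 1023, 1032 and 1017 CPM in EV-Epinephrine, and was called with EV-TNF, at 0.11. MKI67 had 671, 728 and 769 CPM in EV-Control, 758, 816 and 799.7 CPM in EV-TNF, 802, 808 and 782 CPM in EV-IL1b and 720.3, 738 and 683 CPM in EV-Epinephrine. It rose by 0.13 with EV-TNF, where the groups overlapped, and by 0.14 with EV-IL1b, where they did not. The calls of MKI67 were lost without EV-Control replicate 1 or 2 or without EV-TNF replicate 2 or 3 (adjusted p up to 0.134) for EV-TNF and without EV-Control replicate 1 or without EV-IL1b replicate 1 (adjusted p up to 0.0651) for EV-IL1b, and neither was called with all 30 libraries in 1 fit. Those of UBE2C and CCNB1 with EV-IL1b were lost without EV-Control replicate 1 or without EV-IL1b replicate 1 (adjusted p up to 0.112) and without EV-Control replicate 1 (adjusted p = 0.058). CCNB1 lost its call with EV-TNF without EV-Control replicate 1 or 2 or without EV-TNF replicate 3 (adjusted p up to 0.08) and with EV-Epinephrine without EV-Control replicate 1 or 2 or without EV-Epinephrine replicate 1 (adjusted p up to 0.0955). Endothelial markers rose in 6, 5 and 7 of 14 cases with the 3 kinds, and their part was not tested.

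Vesicles from C5a-treated cells gave no call among the 45 genes (0.0503% of all genes tested called, 0.0126% higher and 0.0377% lower). At an unadjusted p under 0.05, 7 of the 45 passed edgeR's test, and DESeq2 called 0 of them. Without EV-Control replicate 3 edgeR called 2. Log2 changes ran from −0.17 (adjusted p = 0.211) for E2F1 to 0.18 (adjusted p = 0.509) for CENPA. Over the 45 genes the approximate 95% intervals of the log2 change reached from −0.35 to 0.32. CDKN1A had 384, 374 and 362 CPM, below each EV-Control library, and was not called at −0.11 (adjusted p = 0.347). E2F1, at 115, 111 and 103 CPM, also lay below, and MKI67, at 788, 792 and 787 CPM, above each EV-Control library. CCND1 (123, 110.1 and 105 CPM), CDKN1B (115, 121 and 128 CPM), CCNE2 (35.03, 33.03 and 32.2 CPM), MCM2 (238, 244 and 242 CPM), PCNA (355, 344 and 344 CPM) and TOP2A (991, 976 and 1019 CPM) overlapped EV-Control.

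**Figure D4:**
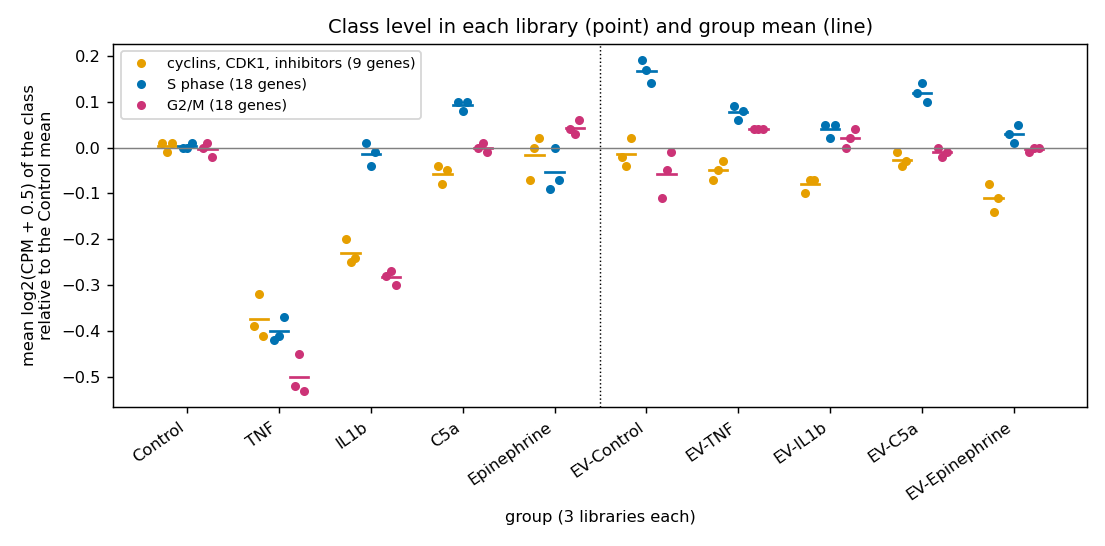
Mean log2(CPM + 0.5) of the genes of each class relative to the Control mean (vertical axis), for each library (points) with the group mean (lines). In TNF all 3 classes lie between −0.53 and −0.32, in IL1b the S-phase class lies between −0.04 and 0.01 and G2/M between −0.3 and −0.27, and in EV-Control the S-phase class lies between 0.14 and 0.19.

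Direct and vesicle responses were compared by the difference between them, tested over the 30 libraries. For TNF the difference was called in 38 of the 45 genes, 36 of them higher with vesicles and 2 lower (44.7% of all genes tested called, 21.3% higher and 23.4% lower). For IL1b it was called in 29, 21 higher and 8 lower (35.2% of all genes tested called, 16.9% higher and 18.3% lower). For C5a it was called in 8, 2 higher and 6 lower (11.9% of all genes tested called, 5.87% higher and 6.05% lower). For epinephrine it was called in 11, 2 higher and 9 lower (24.2% of all genes tested called, 11.7% higher and 12.5% lower). With libraries scaled by their totals the median of all genes moved to 0.31 for TNF and 0.11 for IL1b.

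Some genes were called in opposite directions in the direct comparison, against Control, and the vesicle comparison, against EV-Control. For TNF these were 9: CCNB1, MKI67, TOP2A, AURKA, CDC20, UBE2C, TPX2 and CENPA fell with the cytokine and rose with its vesicles, and MCM7 did the reverse, with a direct change that turns sign with total-count scaling. CENPA differed most, at −0.80 after TNF and 0.22 after EV-TNF, with 42.5, 38.8 and 42.3 CPM in EV-TNF against 32.2, 37.1 and 36.4 CPM in EV-Control. Those vesicle groups did not overlap, but the vesicle call of CENPA was lost without EV-Control replicate 1 or without EV-TNF replicate 1 or 3 (adjusted p up to 0.191). CENPA in EV-Control was itself lower than in Control (log2 −0.28). The highest mean of CENPA among the 10 groups was that of Control, at 42.9 CPM, so EV-TNF did not exceed Control. For IL1b there were 5, CCNB1, AURKA, CDC20, UBE2C and the spindle assembly factor TPX2, all lower with the cytokine and higher with its vesicles. For epinephrine CDC6 and RRM2 rose with the stimulus and fell with its vesicles, and C5a had none. Without EV-Control replicate 1 the vesicle calls of CCNB1, MKI67, TPX2 and CENPA were lost for TNF and those of CCNB1, UBE2C and TPX2 for IL1b.

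**Figure D5:**
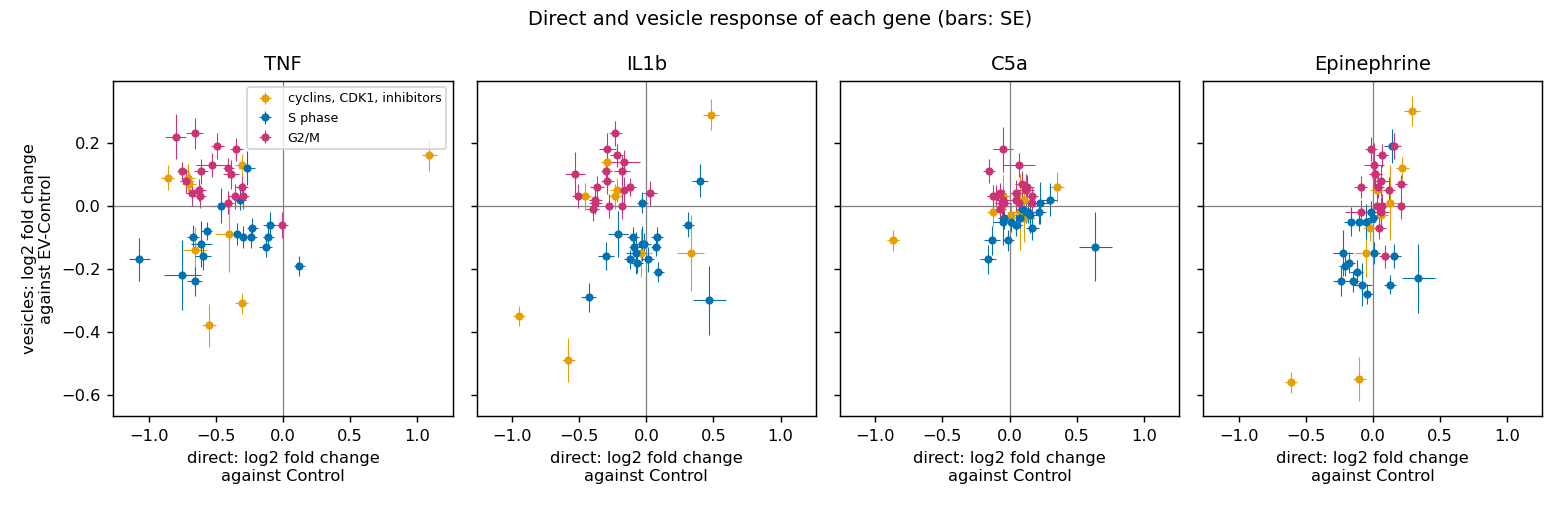
Log2 fold change of each of the 45 genes after the stimulus (horizontal axis, against Control) and after vesicles of cells given that stimulus (vertical axis, against EV-Control), with SE bars, in 4 panels. In the TNF panel the G2/M points lie left of 0, where 7 of them were called higher with vesicles (4 without EV-Control replicate 1), and in the C5a panel all vesicle values lie between −0.17 and 0.18.

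CCND1 rose, and CDKN1A and E2F1 fell, with each of the 4 direct stimuli and with EV-TNF, EV-IL1b and EV-Epinephrine, although the calls of E2F1 with C5a and of CCND1 with EV-TNF were lost in fits with 1 library left out. The direct comparisons share the Control libraries. CDKN1A fell by 0.95, 0.87 and 0.61 with IL1b, C5a and epinephrine and by 0.31 with TNF, and it was lower in IL1b than in TNF (log2 −0.64, SE 0.045, adjusted p = 3.28e-14). The fall of CDKN1A was smaller with vesicles than with the stimulus for IL1b (difference 0.61, adjusted p = 5.01e-14) and for C5a (difference 0.77, adjusted p = 2.97e-16). For TNF that difference was not called at 0.00 (adjusted p = 0.954). For epinephrine CDKN1B fell further with vesicles than with the stimulus (difference −0.45, adjusted p = 1.41e-05). The change of E2F8 from its own control was lower with vesicles than with the stimulus for IL1b, C5a and epinephrine, by 0.76, 0.77 and 0.56. E2F8 rose with these stimuli and was not called with any vesicle kind against EV-Control, which itself lay 0.36 above Control.

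TERT, the catalytic subunit of telomerase used to immortalise this line, was read at 140 ± 11.3 CPM in Control (SD, n = 3). Reads from an introduced copy and from the cell's own gene cannot be told apart here. TERT rose by 0.47 with IL1b and by 0.20 with epinephrine, and fell by 0.36, 0.42 and 0.28 with EV-TNF, EV-IL1b and EV-Epinephrine. It was not called with TNF, C5a or EV-C5a.

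Of 16 regulators of growth and quiescence, 9 rose and 5 fell with TNF, 2 rose and 10 fell with IL1b, 1 rose and 10 fell with C5a, and 5 rose and 6 fell with epinephrine. The shares called were 87.5%, 75%, 68.8% and 68.8%, against 52.7%, 46.6%, 22.6% and 25.2% of all genes tested. ID2, an inhibitor of basic helix-loop-helix factors, rose by 1.95 with TNF and 1.07 with epinephrine and fell by 1.45 with IL1b and 1.59 with C5a. With vesicles ID2 fell by 1.40 (EV-TNF), 1.25 (EV-IL1b) and 2.64 (EV-Epinephrine) from EV-Control, which itself lay 2.29 above Control. The endothelial factor KLF2 fell by 1.45 with TNF, 1.84 with IL1b, 1.51 with C5a and 0.99 with epinephrine. With EV-Epinephrine 11 of the 16 fell and 0 rose (68.8% called, against 19.7% of all genes tested).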

How the data were processed

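RNA sequencing was done on 30 libraries of hCMEC/D3 cells, from 1 ng of total RNA each, per the labels' protocols. The values are raw counts per gene as deposited by the authors in 1 table. STAR, FastQC, R 4.4.1, DESeq2 and the build hg38 are named in the submitters' processing notes, with no role given. The counting program, annotation release and strand setting are not given in the sources used here.

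Of 63147 lines 63138 genes were kept. Lines with no gene ID held 0.00079% to 0.0016% of counts and were left out, as were TTN and ANK2, whose lines are broken, and 3 repeated IDs with identical values were kept once. Counts were tested with edgeR 4.0.16 in R 4.3.3 (limma 3.58.1): filterByExpr, TMM factors, robust quasi-likelihood fits and two-sided tests, with Benjamini-Hochberg adjustment over all genes tested and a threshold of 0.05. The 15 direct libraries (15908 genes), the 15 vesicle libraries (15918 genes) and all 30 libraries (16691 genes, for EV-Control against Control and for differences between responses) were fitted apart. CPM used the TMM factors of the 30 libraries. Gene positions and exon lengths came from GENCODE on GRCh38. Promoters came from RefSeq on GRCh38.p14.

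Any of the 45 genes may be named. Values of each library are given for up to 3 per class and comparison with the largest called change and for CCND1, CCNE2, CDKN1A, CDKN1B, MKI67, TOP2A, MCM2, PCNA and E2F1. From the other lists up to 3 called genes per comparison, with a mean of at least 5 CPM, are named, and TERT always; some genes that this rule names are not reported here. MAP2, GJA1, GFAP and KLF2 with C5a were added after their values were seen. The members and lists were chosen with earlier results of these data known. Tested on simulated counts of 15624 genes for TNF against Control, the script found 16 of 50 changes of 0.25 on the log2 scale, 48 of 50 of 0.5 and 50 of 50 of 1, with 11 false calls. In all, 200 genes were changed there, a far smaller share than the 52.7% called for TNF in the data. The rates found need not hold for the data. Alternatives were relative log expression factors, scaling by library totals, no filter on low counts, a mean of at least 50 counts, DESeq2 1.42.0, a replicate block, only the groups compared, 1 fit of 30 libraries, and leaving out each library. The number of counts behind each value limits its precision, and intervals cover the spread between libraries only.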

Additional observations from a re-analysis of the deposited data

Results flagged for a closer look

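The results below were picked out because the response to vesicles and the response to the stimulus itself differed in a test of that difference, edgeR's quasi-likelihood test over the 30 libraries. The difference was called in 38 of the 45 genes for TNF, 29 for IL1b, 8 for C5a and 11 for epinephrine. These are shares of 84.4%, 64.4%, 17.8% and 24.4%, against 44.7%, 35.2%, 11.9% and 24.2% of all genes tested. The count for epinephrine is thus near the share of all genes. Values are the vesicle change minus the direct change on the log2 scale, for genes called in opposite directions. For TNF they were 0.45 for CCNB1, 0.66 for MKI67, 0.86 for TOP2A, 0.68 for AURKA, 0.53 for CDC20, 0.89 for UBE2C, 0.53 for TPX2, 1.02 for CENPA and −0.31 for MCM7, and MCM7 is the gene whose direct change turns sign with total-count scaling. For IL1b they were 0.43 for CCNB1, 0.47 for AURKA, 0.39 for CDC20, 0.48 for UBE2C and 0.42 for TPX2. For epinephrine they were −0.31 for CDC6 and −0.37 for RRM2. Groups of 3 libraries were too small to look for single libraries far from the rest.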

How the results depend on the processing

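Scaling by library totals turned the sign of 7 results that were called with TMM factors or with that scaling. MCM7 went to −0.15 in TNF against Control. In IL1b against TNF, CDKN1B and MCM7 went to 0.16 each, FOXM1 to 0.13 and BUB1 to 0.03, and in the difference between vesicle and direct TNF responses PCNA went to 0.29 and BUB1 to 0.25. That scaling moved the share of all called genes that were higher from 52.1% to 22.7% for TNF, 51.5% to 38.6% for IL1b, 48.1% to 76.1% for IL1b against TNF, 46.4% to 60.2% for EV-Epinephrine and 55.3% to 42.6% for EV-Control against Control. For the differences between responses it moved from 47.7% to 76.7% for TNF and 48.1% to 62.4% for IL1b. With only the groups compared, 21 of the 45 genes were called for C5a and 9 for epinephrine. Of all 14883 genes tested, these fits called 4595 and 2878. The cause was not tested.

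Leaving out 1 library gave 41 to 44 calls for TNF, 27 to 30 for IL1b, 9 to 11 for C5a, 11 to 19 for epinephrine and 34 to 37 for IL1b against TNF. For vesicles it gave 12 to 19 for EV-TNF, 13 to 20 for EV-IL1b, 0 to 2 for EV-C5a, 18 to 21 for EV-Epinephrine and 17 to 24 for EV-Control against Control. For the differences it gave 37 to 39 (TNF), 28 to 30 (IL1b), 7 to 9 (C5a) and 9 to 12 (epinephrine). The lowest counts for epinephrine and EV-IL1b came without Control replicate 1 and EV-Control replicate 1, and the 2 calls for EV-C5a without EV-Control replicate 3. No result called in the fit used here or in the alternative turned sign under these fits. The same held for DESeq2, relative log expression factors, either filter, the block and 1 fit of 30 libraries. DESeq2 left 616 results on their side of the threshold, 10 passed it and 4 fell short.

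Samples share replicate numbers, but same-numbered libraries did not deviate together over all genes that passed the filter, with correlations of −0.04 to 0.03. A pairing that touches few genes could be missed by this measure, so it does not settle whether the numbers pair libraries. With a replicate block 43 genes were called for TNF, 31 for IL1b, 13 for C5a, 15 for epinephrine, 38 for IL1b against TNF, 16 for EV-TNF, 20 for EV-IL1b, 0 for EV-C5a, 19 for EV-Epinephrine, 22 for EV-Control against Control, and 38, 29, 7 and 11 for the differences in the order above. The lowest count of the 45 genes in any library was 88, for E2F8, which also had the widest spread within groups (median coefficient of variation 9.76%). Changes of 0.25 on the log2 scale were found in 16 of 50 simulated cases, where 200 of 15624 genes were changed, far fewer than were called for TNF in the data.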
